A study of Mus musculus with 31 samples.

Results

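The collapsin response mediator family comprises 5 genes in the mouse: Crmp1, Dpysl2 (Crmp2), Dpysl3 (Crmp4), Dpysl4 (Crmp3) and Dpysl5 (Crmp5). They were found by matching these symbols to the Ensembl identifiers of the count matrix, and all 5 were present among 47729 genes listed. The matrix held RNA-seq counts from 31 pieces of embryonic mouse nerve cut out by laser microdissection. Each of the 5 genes had counts in every library (the lowest was 63) and all 5 passed the filter on low counts that kept 19332 genes.

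Collapsin response mediator proteins are cytosolic phosphoproteins of growing neurons. They bind tubulin and actin, and several take part in the growth cone's response to semaphorin 3A, which acts through neuropilin and plexin receptors. Dpysl2 binds tubulin dimers and promotes axon growth until kinases such as Cdk5 and Gsk3b phosphorylate it, whereas Dpysl5 is the most divergent member and has been linked to limits on neurite outgrowth. Dpysl3 bundles F-actin. The family takes its Dpysl names from a sequence likeness to dihydropyrimidinase (Dpys), a pyrimidine degradation enzyme, although the members are not known for that activity. Family members are also found outside neurons, for example Dpysl2 in glia.

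All embryos carried the Sox10:Histone2BVenus transgene, a bacterial artificial chromosome in which Sox10 regulatory sequence drives a nuclear fluorescent protein. Pieces were cut under fluorescence from cryosections, and no treatment is named. They came from olfactory nerve in the lamina propria at E16.5, E13.5 and E11.5, from the olfactory nerve layer (ONL) around the bulb at E13.5, from "inner" ONL (closest to the bulb) and "outer" ONL (furthest from it) at E16.5, and from trigeminal nerve branches at E16.5. No morphological boundary separated inner from outer ONL. Sections were pooled for each piece, and several pieces of the early groups came from the same embryo according to the study's methods. The files do not say which, so p-values at E11.5 and E13.5 treat some pieces of a shared embryo as separate. At E16.5 the regions were cut from shared cryosections, so pieces of different groups can come from the same embryo. The labels do not tie replicate numbers to embryos, and the tests given first are unpaired. In bulk pieces such as these, fewer cells of a type and less RNA per cell cannot be told apart.

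Before any result, the label and the tabulated group disagree for 10 of the 16 early libraries, and which of them is right was not settled. Each group mean that the study tabulated is an equal-weight average of particular libraries, and these are other libraries than the labels name. By those averages, E13.5 ONL consists of all 4 libraries with the E11.5 label and 1 labelled E13.5 olfactory nerve. E13.5 olfactory nerve consists of 6 libraries labelled so and 1 labelled E13.5 ONL, and E11.5 olfactory nerve consists of 4 labelled E13.5 ONL. The early groups named here follow the tabulated averages, with the values by label given beside each early comparison. The 15 E16.5 libraries are grouped alike either way. Tbr1, a transcription factor of olfactory bulb projection neurons, was at 208 to 346 CPM in the 5 libraries grouped as E13.5 ONL. In the other 11 early libraries it was at 0.0584 to 7.59 CPM. By in situ hybridization the study saw Npy, a neuropeptide gene, in ONL glia around E13.5 and in no nerve glia at E11.5. Npy was at 166 to 458 CPM in the same 5 libraries and at 0.0543 to 3.16 CPM in the other 11. CPM values are gene counts scaled to library size after TMM normalisation in edgeR.

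The groups held 4 (E11.5 nerve), 7 (E13.5 nerve), 5 (E13.5 ONL), 4 (E16.5 nerve), 4 (outer ONL), 4 (inner ONL) and 3 (trigeminal nerve) libraries, with 3512627 to 36705535 counts per library. Glial and neuronal RNA differed between the groups. Sox10, the transcription factor of olfactory ensheathing and Schwann cells, averaged 57.4 ± 18.1 CPM (SD, n = 7) in E13.5 nerve and 646 ± 61.0 CPM (SD, n = 4) in outer ONL. Tubb3, a neuronal beta-tubulin, averaged 1134 ± 291 CPM (SD, n = 5) in E13.5 ONL and 5.35 ± 0.347 CPM (SD, n = 3) in trigeminal nerve. Omp, the marker of mature olfactory sensory neurons, stayed at 48.2 CPM or lower in every library. The 12 markers of olfactory bulb neurons summed to 515 to 1022 CPM in inner ONL and to 18.9, 197, 49.2 and 122 CPM in outer ONL replicates 1 to 4. Their part in any result below was not tested.

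For Crmp1 and Dpysl5, bases before the annotated starts are shown, a choice that did not rest on their levels. The RefSeq windows at hand held none for Dpysl2 and Dpysl4, and Dpysl3 was not included. The sequences are from RefSeq (GRCm38.p6, + strand), written 5′ to 3′, and capitals mark GC boxes, GGGCGG or its reverse complement CCGCCC, which overlap in 1 place in Crmp1. Bases within a GENCODE exon are left out.
Dpysl5, chr5:30711314-30711563: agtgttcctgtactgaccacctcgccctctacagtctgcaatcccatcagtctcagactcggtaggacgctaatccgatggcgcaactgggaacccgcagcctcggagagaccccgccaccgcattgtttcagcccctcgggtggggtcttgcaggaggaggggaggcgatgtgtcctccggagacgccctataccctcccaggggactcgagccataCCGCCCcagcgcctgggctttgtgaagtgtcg
Crmp1, first start, chr5:37241808-37241939: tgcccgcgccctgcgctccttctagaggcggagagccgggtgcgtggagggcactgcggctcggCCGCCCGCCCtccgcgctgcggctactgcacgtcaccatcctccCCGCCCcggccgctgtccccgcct
Crmp1, second start, chr5:37245514-37245763: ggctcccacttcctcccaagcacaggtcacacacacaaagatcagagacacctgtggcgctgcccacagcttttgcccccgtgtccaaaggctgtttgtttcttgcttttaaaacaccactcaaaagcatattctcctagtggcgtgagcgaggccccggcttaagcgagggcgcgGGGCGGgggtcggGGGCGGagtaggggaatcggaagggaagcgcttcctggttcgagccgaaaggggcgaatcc

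The Dpysl5 window held 1 GC box, the first Crmp1 window 3 and the second Crmp1 window 2. Of all 32851 RefSeq windows of 250 bases, 32.7% held at least 1 GC box, and of windows of 132 bases at the same place, 14.3% did. None of the 3 windows held TATAAA on either strand, which 12.4% of the 250-base windows did. These matches describe the letters only.

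The 5 genes lie on 4 chromosomes of mm10. Crmp1 (ENSMUSG00000029121) spans chr5:37241940-37292133 and Dpysl5 (ENSMUSG00000029168) chr5:30711564-30799375, both on the + strand. Dpysl2 (ENSMUSG00000022048) spans chr14:66802864-66868688 and Dpysl3 (ENSMUSG00000024501) chr18:43320984-43438286, both on the - strand. Dpysl4 (ENSMUSG00000025478) spans chr7:139086001-139102704 on the + strand. Counts covered whole genes and not isoforms. Crmp1 overlaps Evc, and Dpysl5 overlaps Gm42764, but in neither case do exons overlap.

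Dpysl3 was the leading member per length in every olfactory group. On the scale of CPM per kb of exon, it reached 195 ± 25.6 (SD, n = 5) in E13.5 ONL, 179 ± 31.6 (SD, n = 4) in inner ONL and 126 ± 11.3 (SD, n = 4) in E16.5 olfactory nerve, against 80.1 ± 23.9 (SD, n = 4) in outer ONL and 21.9 ± 5.59 (SD, n = 3) in trigeminal nerve. As a share of the summed family level per kb, Dpysl3 made up 72.0% ± 2.58 (SD, n = 4) in E16.5 olfactory nerve and 38.2% ± 7.01 (SD, n = 3) in trigeminal nerve. Trigeminal nerve was the group in which Dpysl2 held the largest mean share, 46.8% ± 7.62 (SD, n = 3), against 14.1% ± 1.30 (SD, n = 4) in E16.5 olfactory nerve, and these libraries did not overlap.

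Crmp1 held 20.7% ± 1.82 of the family in E13.5 ONL (SD, n = 5), 23.2% ± 3.71 in E11.5 nerve (SD, n = 4) and 19.6% ± 4.43 in inner ONL (SD, n = 4). In the other 4 groups its mean share lay between 5.68% and 6.75%. Dpysl4 and Dpysl5 were minor members throughout, with mean shares of 2.44% to 7.59% and 1.61% to 5.25%. Shares are descriptions, since a fall of 1 member raises the shares of the others.

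**Figure D1:**
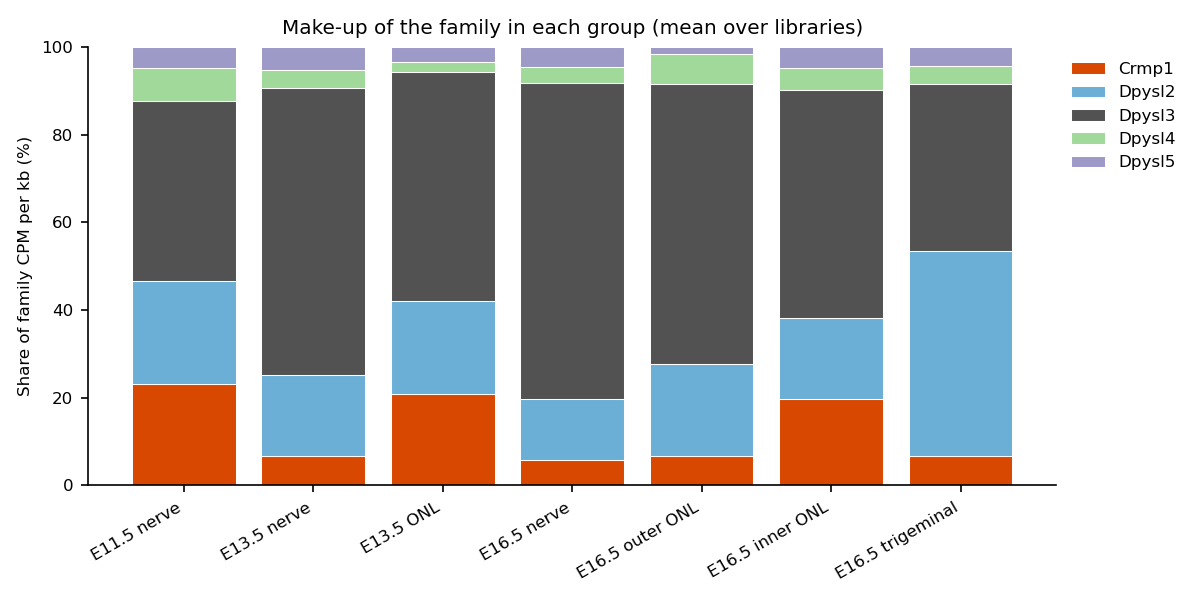
Mean share of each member (colours) in the summed family level, in CPM per kb of exon (percent, vertical axis), for the 7 groups (horizontal axis). Dpysl3 is the tallest segment in the 6 olfactory groups, from 41.1% in E11.5 nerve to 72.0% in E16.5 nerve, and Dpysl2 is the tallest in trigeminal nerve with 46.8%.

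Crmp1, a member largely restricted to the nervous system, was high in the ONL groups close to the bulb and in the earliest nerve. In E13.5 ONL its 5 libraries were at 424, 475, 479, 639 and 756 CPM. In inner ONL its replicates 1 to 4 were at 687, 585, 466 and 244 CPM. The 4 libraries of E11.5 nerve were at 275, 407, 452 and 456 CPM. These 3 groups overlapped with their neighbours in the order of means (555, 495 and 398 CPM).

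All other groups lay below them with no overlap. Crmp1 ranged from 64.2 to 108 CPM (median 86.9) in the 7 libraries of E13.5 nerve. Replicates 1 to 4 of E16.5 nerve were at 60.9, 62.1, 69.8 and 89.3 CPM. Outer ONL replicates 1 to 4 were at 15.96, 127, 24.5 and 103 CPM, so that replicates 2 and 4 lay above every E16.5 nerve library and replicates 1 and 3 below. The 3 trigeminal nerve libraries were at 20.6, 27.0 and 32.3 CPM and overlapped with outer ONL.

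Dpysl2, the tubulin-binding member, was higher in the same 3 groups as Crmp1, with no overlap with the other 4. It was at 280, 296, 362, 406 and 484 CPM in E13.5 ONL, at 284, 400, 265 and 216 CPM in inner ONL replicates 1 to 4, and at 210, 249, 255 and 309 CPM in E11.5 nerve. E13.5 nerve followed with 121 to 165 CPM (median 149). The 3 remaining groups had means of 119 (trigeminal nerve), 115 (outer ONL) and 112 CPM (E16.5 nerve), and each overlapped with the next.

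The outer ONL replicates 1 to 4 held 113, 136, 90.9 and 119 CPM of Dpysl2, the E16.5 nerve replicates 112, 103, 96.0 and 135 CPM, and the trigeminal nerve replicates 126, 128 and 104 CPM. No order among these 3 groups can be read from such values.

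Dpysl3, the actin-bundling member, was abundant in all olfactory groups. It was at 1155, 1165, 1278, 1278 and 1573 CPM in E13.5 ONL and at 1174, 1333, 1339 and 894 CPM in inner ONL replicates 1 to 4. E16.5 nerve replicates 1 to 4 were at 777, 766, 862 and 923 CPM. The 7 E13.5 nerve libraries ranged from 629 to 974 CPM (median 715), and E11.5 nerve was at 567, 607, 704 and 731 CPM.

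Outer ONL replicates 1 to 4 held 404, 597, 395 and 721 CPM of Dpysl3, which put all 4 below the E16.5 nerve libraries. Trigeminal nerve, with 102, 163 and 169 CPM, was lowest and did not overlap with any other group. In the order of means, each olfactory group overlapped with the next.

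Dpysl4 had another order. Its means were highest in E11.5 nerve, where the libraries were at 85.4, 95.5, 127 and 129 CPM, and in inner ONL, where replicates 1 to 4 were at 133, 97.7, 101 and 79.4 CPM. E13.5 ONL, which held the highest mean of Crmp1, Dpysl2 and Dpysl3, ranked below them for Dpysl4 with 44.7, 45.0, 58.8, 59.5 and 65.0 CPM and did not overlap with inner ONL. Outer ONL (50.1, 59.9, 39.5 and 48.6 CPM in replicates 1 to 4), E13.5 nerve (34.3 to 53.1 CPM, median 42.1) and E16.5 nerve (36.6, 43.8, 36.1 and 39.8 CPM) overlapped. Trigeminal nerve was lowest at 13.9, 12.4 and 15.5 CPM.

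Dpysl5, the divergent member, had a wider fold range from the lowest to the highest library than Dpysl2, Dpysl3 and Dpysl4 in each olfactory group. Inner ONL replicates 1 to 4 were at 209, 146, 88.2 and 72.1 CPM, and E13.5 ONL was at 69.9, 85.0, 88.5, 101 and 126 CPM. The early nerves were close to each other, at 58.5, 84.0, 86.7 and 112 CPM for E11.5 and 34.5 to 109 CPM (median 65.3) for E13.5. E16.5 nerve replicates 1 to 4 were at 64.0, 23.3, 50.6 and 99.6 CPM. The lowest groups were outer ONL (4.83, 32.3, 6.12 and 23.9 CPM in replicates 1 to 4) and trigeminal nerve (18.6, 13.9 and 20.7 CPM), which overlapped.

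**Figure D2:**
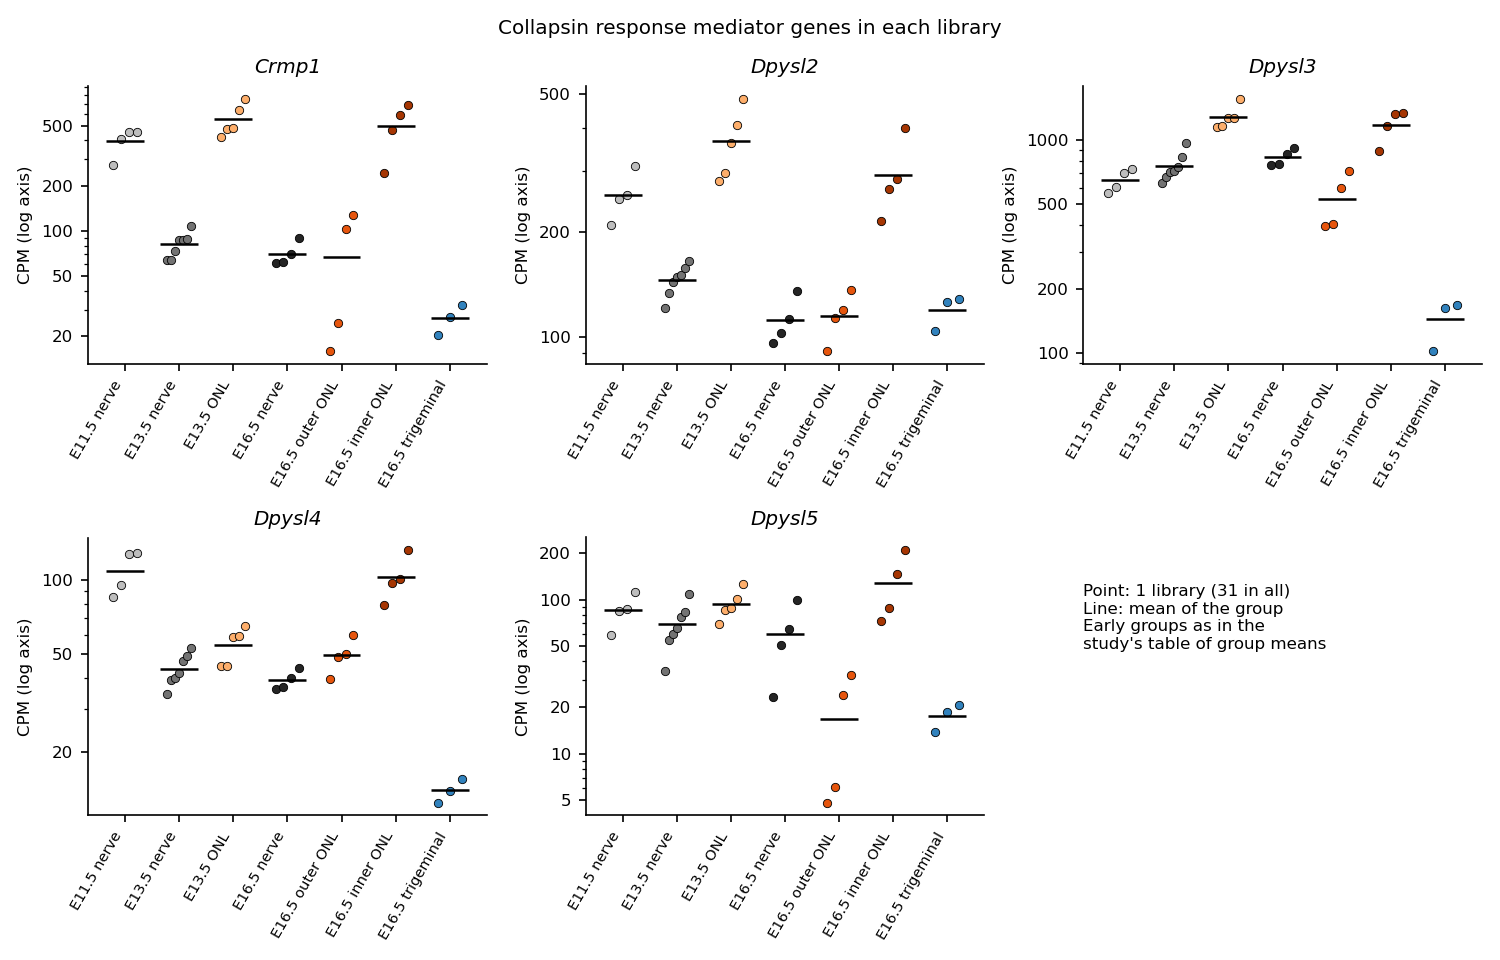
Level of each member (CPM, log axis) in each of 31 libraries, by group along the horizontal axis, with 1 point per library and a line at the group mean. For Crmp1 and Dpysl5 the 4 outer ONL points form an upper and a lower pair, at 103 and 127 against 15.96 and 24.5 CPM for Crmp1, whereas for Dpysl2, Dpysl3 and Dpysl4 the 4 points lie within 1.82-fold of each other.

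The differences were tested in 9 comparisons with edgeR's quasi-likelihood test over 19332 genes, with Benjamini-Hochberg adjustment. The threshold for calling a gene was an adjusted p of 0.05, and log2 fold changes are given with their standard error (SE).

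Inner and outer ONL at E16.5 were cut by their distance from the bulb. The study reported that its inner ONL pieces took in some olfactory bulb tissue, and for that reason used outer ONL in its comparisons with nerve. By its account, the cuts also failed to part inner from outer ensheathing cells. All 5 members were higher in inner ONL, and for each of them the 4 inner libraries lay above the 4 outer libraries. Over all genes tested, 14.1% were called, 8.20% as higher in inner ONL, and 18.8% had groups that did not overlap. The log2 fold changes were 2.93 ± 0.47 (SE) for Dpysl5, 2.87 ± 0.41 for Crmp1, 1.34 ± 0.18 for Dpysl2, 1.16 ± 0.18 for Dpysl3 and 1.05 ± 0.17 for Dpysl4. The edgeR adjusted p-values lay between 3.26e-06 (Dpysl2) and 5.29e-05 (Dpysl4), and all 5 calls held in each of the 16 alternatives run for them. Among these alternatives is the fit without outer ONL replicates 2 and 4, which was chosen after seeing the data and is no test of the calls.

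In linear terms the inner ONL level was 7.64-fold that of outer ONL for Dpysl5, 7.31-fold for Crmp1, 2.53-fold for Dpysl2, 2.24-fold for Dpysl3 and 2.08-fold for Dpysl4. The family's median log2 fold change was 1.34, beside -0.05 over all genes tested. Outer ONL replicates 2 and 4, with more Tubb3 than replicates 1 and 3, also held the most Crmp1 and Dpysl5. Without them the log2 fold changes were 4.59 for Dpysl5, 4.65 for Crmp1 and 1.23 to 1.60 for the other three, and the larger values for Crmp1 and Dpysl5 follow from which libraries were left out.

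Neuronal RNA moved with this difference. Tubb3 was at 746, 743, 597 and 340 CPM in inner ONL replicates 1 to 4 and at 11.4, 199, 23.7 and 95.8 CPM in outer ONL replicates 1 to 4. All 14 genes of neuronal microtubules and growth cones were called as higher in inner ONL, with a median log2 fold change of 2.37, and so were 11 of the 12 olfactory bulb neuron markers (median 2.81). Sox10 averaged 550 ± 133 CPM in the inner libraries (SD, n = 4) and 646 ± 61.0 CPM in the outer ones (SD, n = 4). All 8 mesenchyme markers were called as lower in inner ONL (median -2.06), with Col1a1, a fibrillar collagen, at 94.7 ± 24.8 CPM against 740 ± 406 CPM (SD, n = 4 each), as were 3 of 9 markers of ensheathing and Schwann glia. The part of neuronal and mesenchymal RNA in the family's difference was not tested.

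Outer ONL was compared with olfactory nerve at E16.5, that is, axons and glia close to the brain with those still in the mucosa. Dpysl3 fell by 0.65 on the log2 scale (SE 0.18, edgeR adjusted p = 0.00843) from nerve to outer ONL, and Dpysl5 fell by 1.82 (SE 0.45, edgeR adjusted p = 0.00345), which is 3.52-fold. With the replicate number as a block, their edgeR adjusted p-values were 0.0110 and 0.0366. For Dpysl3 the libraries did not overlap, whereas for Dpysl5 outer ONL replicates 2 and 4 overlapped with nerve replicate 2. Crmp1 (-0.06 ± 0.39), Dpysl2 (0.04 ± 0.18) and Dpysl4 (0.34 ± 0.17) were not called, with edgeR adjusted p-values of 0.945, 0.909 and 0.168. Of all genes, 22.0% were called, 11.8% as lower in outer ONL, and 24.3% had groups that did not overlap.

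The 4 outer ONL libraries lay on both sides of the nerve libraries for Crmp1. Replicates 2 and 4 were the highest of the 4 for Crmp1, Dpysl2, Dpysl3 and Dpysl5, but not for Dpysl4. With them left out, the log2 fold changes were -1.82 for Crmp1, -1.08 for Dpysl3, -3.47 for Dpysl5, -0.15 for Dpysl2 and 0.18 for Dpysl4. These values describe replicates 1 and 3 and are no test, since the choice of libraries sets their direction.

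Markers of other cells moved with this comparison. Tubb3 was called as lower in outer ONL (82.5 ± 86.3 CPM) than in nerve (198 ± 58.6 CPM, SD, n = 4 each), with a log2 fold change of -1.26 (edgeR adjusted p = 0.0469). Also lower were 8 of 10 olfactory sensory neuron markers (median -2.21) and 5 of 8 mesenchyme markers (median -1.01), whereas 6 of 9 markers of ensheathing and Schwann glia were higher (median 1.35). Of the 14 microtubule and growth cone genes, 2 were higher and 1 was lower, and of the 12 bulb neuron markers, 4 were higher and 2 lower. The part of these in the differences of Dpysl3 and Dpysl5 was not tested.

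The size of the spread within outer ONL differed between the members. From the lowest to the highest of its 4 libraries, Tubb3 differed 17.6-fold, Crmp1 7.98-fold, Dpysl5 6.68-fold and Stmn2, a growth cone tubulin-binding protein, 6.32-fold. Dpysl3 differed 1.82-fold, Dpysl4 1.52-fold and Dpysl2 1.496-fold, beside the 1.24-fold of Sox10. In the 2 libraries with least Tubb3, replicates 1 and 3, Dpysl3 was still at 404 and 395 CPM, Dpysl2 at 113 and 90.9 CPM and Dpysl4 at 50.1 and 39.5 CPM.

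On the log2 scale, the ratio of Dpysl3 to Tubb3 ranged from 1.58 to 5.09 in outer ONL and from 1.71 to 2.35 in E16.5 nerve, with 0.5 CPM added to each. The ratio of Dpysl4 to Tubb3 ranged from -1.73 to 2.09 and from -2.81 to -1.77 in the same groups. Relative to Sox10, outer ONL was the more even of the pair for Dpysl2, at -2.65 to -2.31 against -0.81 to 0.38 in nerve. Ratios are descriptions, since both of their terms vary.

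**Figure D3:**
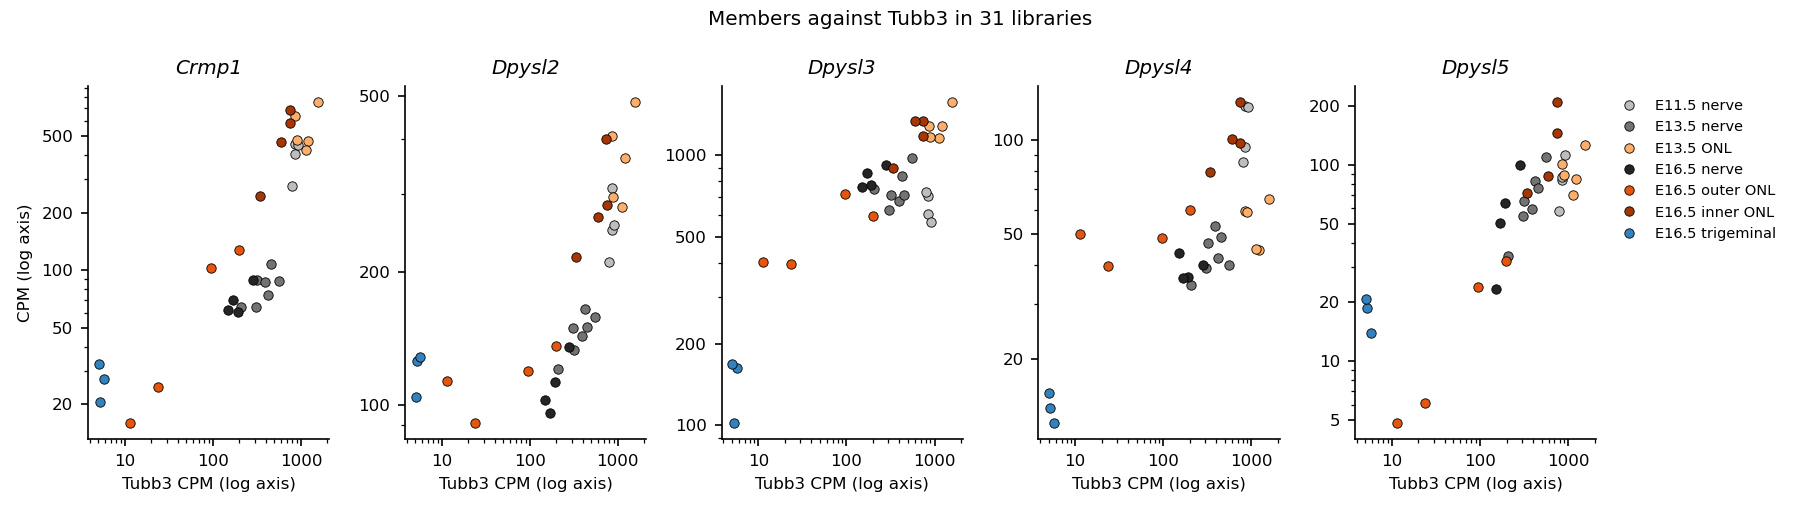
Each member's level against that of Tubb3 (both CPM, log axes) in 31 libraries, coloured by group. At the 2 outer ONL points with Tubb3 at 11.4 and 23.7 CPM, Crmp1 and Dpysl5 are near the bottom of their panels. Dpysl2, Dpysl3 and Dpysl4 are there within 1.82-fold of the 2 outer ONL points with more Tubb3. The Dpysl2 point at 23.7 CPM of Tubb3 is the lowest of the 31 libraries, at 90.9 CPM.

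Trigeminal nerve, whose glia are Schwann cells, was set against the olfactory pieces of the same stage. Compared with E16.5 olfactory nerve, 4 members were lower in trigeminal nerve, where 23.6% of all genes were called and 13.0% were higher in olfactory nerve. The log2 fold changes of olfactory over trigeminal nerve were 2.52 ± 0.21 (SE) for Dpysl3, 1.75 ± 0.49 for Dpysl5, 1.49 ± 0.19 for Dpysl4 and 1.41 ± 0.43 for Crmp1, with edgeR adjusted p-values of 3.75e-10, 0.00934, 8.07e-07 and 0.0174. For these 4 genes the olfactory and trigeminal libraries did not overlap, as for 33.7% of all genes. Dpysl2 had a log2 fold change of -0.10 ± 0.19 (edgeR adjusted p = 0.771) and overlapping libraries.

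The call of Crmp1 was lost when the early libraries were grouped by label (edgeR adjusted p = 0.154) and without trigeminal nerve replicate 1 (0.0855, by edgeR), and that of Dpysl5 without trigeminal nerve replicate 2 (0.0502, by edgeR). The calls of Dpysl3 and Dpysl4 held in all 14 alternatives.

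Against outer ONL, 3 members were lower in trigeminal nerve. Outer ONL exceeded trigeminal nerve by a log2 fold change of 1.87 ± 0.21 (SE) for Dpysl3 and 1.83 ± 0.20 for Dpysl4, which is 3.66-fold and 3.55-fold, with edgeR adjusted p-values of 3.05e-08 and 1.96e-08. Neither gene's libraries overlapped. Of all genes, 25.8% were called, 2617 of 19332 as higher in outer ONL, and 34.0% had groups that did not overlap. Dpysl2 (-0.05 ± 0.19) and Dpysl5 (-0.07 ± 0.48) were not called, with edgeR adjusted p-values of 0.884 and 0.946.

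The remaining call was Crmp1 at 1.35 ± 0.43 (edgeR adjusted p = 0.0203). Without outer ONL replicates 2 and 4, the highest for both genes, Crmp1 was at -0.39 and Dpysl5 at -1.69, values that describe replicates 1 and 3 and are no test. Without 1 library, Crmp1 was at 0.85 without outer ONL replicate 2 (edgeR adjusted p = 0.147), 1.08 without outer ONL replicate 4 (edgeR adjusted p = 0.0847), and uncalled without trigeminal nerve replicate 1 or 2 (edgeR adjusted p = 0.0962 and 0.0589). It was also uncalled by label (0.164, by edgeR) and in a fit of these 2 groups alone (0.112, by edgeR). With a replicate block it was uncalled too (0.612, by edgeR), but this fit left out outer ONL replicate 4, which was high in Crmp1. The replicate numbers were not taken to pair these groups.

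Neuronal genes did not all move with the low trigeminal levels. Tubb3 was at 5.23, 5.74 and 5.07 CPM in trigeminal nerve replicates 1 to 3, and 8 of the 14 microtubule and growth cone genes were called as lower there than in olfactory nerve and 8 as lower than in outer ONL. Tuba1a, an alpha-tubulin, was called as higher in trigeminal nerve (1505.5 ± 600 CPM, SD, n = 3) than in olfactory nerve (861 ± 171 CPM, SD, n = 4) and outer ONL (860 ± 188 CPM, SD, n = 4). Tubb2a, a beta-tubulin, was at 177 ± 37.6 CPM there and lower in olfactory nerve (102 ± 11.6 CPM). Gap43, a growth cone protein, was at 174 to 234 CPM in trigeminal nerve and 45.1 to 313 CPM in outer ONL. The 8 mesenchyme markers summed to 23488 to 27627 CPM there, against 5732 to 11009 CPM in outer ONL, and the 6 markers of myelinating Schwann cells to 2568 to 3827 CPM against 263 to 339 CPM. The part of these in the family's differences was not tested.

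The ONL was compared with olfactory nerve at E13.5, when the layer is forming. Of the 5 members, 3 were higher in the ONL, beside 31.5% of all genes called and 15.4% called as higher. The log2 fold changes were 2.76 ± 0.32 (SE) for Crmp1, which is 6.75-fold, 1.33 ± 0.14 for Dpysl2 and 0.77 ± 0.15 for Dpysl3, with edgeR adjusted p-values of 6.17e-08, 1.38e-08 and 0.000121. The libraries of these 3 did not overlap between the groups, as for 19.6% of all genes. Dpysl4 (0.33 ± 0.14, edgeR adjusted p = 0.0817) and Dpysl5 (0.44 ± 0.36, edgeR adjusted p = 0.389) were not called. Dpysl4 passed the threshold when either of 2 ONL libraries, those labelled E11.5 olfactory nerve 3 and 4, or nerve replicate 5 was left out, with edgeR adjusted p-values of 0.0494, 0.0497 and 0.0493.

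By the labels, this comparison gave other results. Dpysl4 was then the called member, at 1.01 ± 0.20 (edgeR adjusted p = 0.00175), beside 17.7% of all genes. Crmp1 was at 1.23 (edgeR adjusted p = 0.0773), Dpysl2 at 0.42 (edgeR adjusted p = 0.139), Dpysl3 at -0.28 (edgeR adjusted p = 0.245) and Dpysl5 at -0.03 (edgeR adjusted p = 0.966). Under that grouping the E13.5 ONL libraries held Tbr1 at 1.74 to 7.59 CPM.

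All 14 neuronal microtubule and growth cone genes were called as higher in E13.5 ONL (median log2 fold change 1.89, all genes -0.03), as were 9 of the 12 olfactory bulb neuron markers (median 3.86), while 8 of 10 olfactory sensory neuron markers were lower (median -3.25). Map2, a dendritic and somatic microtubule protein, was at 456 ± 144 CPM in ONL (SD, n = 5) and 47.0 ± 14.9 CPM in nerve (SD, n = 7). The part of bulb neuron RNA was not tested.

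From E11.5 to E13.5, Crmp1, Dpysl4 and Dpysl2 fell in the olfactory nerve. The log2 fold changes were -2.28 ± 0.33 (SE), -1.33 ± 0.15 and -0.81 ± 0.15, with edgeR adjusted p-values of 3.81e-06, 3.92e-08 and 0.000104 and no overlap of libraries. Of all genes, 36.6% were called, 16.4% as lower at E13.5, and 21.2% had groups that did not overlap. Dpysl3 (0.21 ± 0.16, edgeR adjusted p = 0.315) and Dpysl5 (-0.30 ± 0.38, edgeR adjusted p = 0.5675) were not called. The fall of Crmp1 was 4.84-fold in linear terms.

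By label, with 17.5% of all genes called, Crmp1 (-2.02, edgeR adjusted p = 0.00715) and Dpysl2 (-1.17, edgeR adjusted p = 0.000454) were called in the same direction. Dpysl3 was then called at -0.70 (edgeR adjusted p = 0.00655), and Dpysl4 was not, at -0.19 (edgeR adjusted p = 0.6247). Dpysl5 was at -0.31 (edgeR adjusted p = 0.654).

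Tubb3 moved the same way as the 3 members that fell, from 853 ± 48.1 CPM at E11.5 (SD, n = 4) to 379 ± 113 CPM at E13.5 (SD, n = 7). Of the 14 microtubule and growth cone genes, 13 were lower at E13.5, with a median of -1.18. The share of Dpysl3 in the family per kb was 41.1% ± 6.64 (SD, n = 4) at E11.5 and 65.3% ± 3.37 (SD, n = 7) at E13.5. Sox10 was lower too, from 321 ± 33.0 CPM to 57.4 ± 18.1 CPM, a log2 fold change of -2.48 (edgeR adjusted p = 8.78e-10), and so was Erbb3, a neuregulin receptor of glia (92.1 ± 38.7 against 38.6 ± 3.89 CPM). Of the 9 ensheathing and Schwann glia markers, 3 were lower and 4 higher at E13.5, while 7 of 8 mesenchyme and 5 of 6 blood vessel markers were higher. The part of neuronal, glial, mesenchymal and vessel RNA in these falls was not tested.

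From E13.5 to E16.5, no member was called in olfactory nerve, where edgeR called 28.8% of all genes and 21.2% had groups that did not overlap. The lowest unadjusted edgeR p-value of a member was 0.0211, for Dpysl2. At least 28.8% of all genes had an unadjusted p under 0.05, since every called gene does. The log2 fold changes were -0.38 ± 0.16 (SE) for Dpysl2, -0.22 ± 0.35 for Crmp1, -0.22 ± 0.39 for Dpysl5, -0.15 ± 0.15 for Dpysl4 and 0.14 ± 0.16 for Dpysl3, with edgeR adjusted p-values of 0.0666, 0.681, 0.720, 0.486 and 0.556. DESeq2 called 0 members, and its number of genes called was within 1.5-fold of that by edgeR. Dpysl2 was called in a fit of these 2 groups alone (-0.37, edgeR adjusted p = 0.0275), without the library labelled E13.5 ONL 1 (-0.42, edgeR adjusted p = 0.04995) and by label (-0.61, edgeR adjusted p = 0.0415, beside 25.1% of all genes). By label the other members stayed uncalled, Crmp1 at -1.01, Dpysl5 at -0.37, Dpysl4 at -0.27 and Dpysl3 at 0.03.

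Between E13.5 ONL and E16.5 outer ONL, 4 members were lower in the later layer, beside 41.9% of all genes called and 3869 of 19332 genes called as lower. The ONL was not divided at E13.5, so stage and position cannot be told apart. The log2 fold changes were -3.03 ± 0.41 (SE) for Crmp1, -2.48 ± 0.45 for Dpysl5, -1.67 ± 0.17 for Dpysl2 and -1.28 ± 0.18 for Dpysl3, with edgeR adjusted p-values of 5.42e-07, 4.61e-05, 8.12e-09 and 7.94e-07, and none of their libraries overlapped (32.2% of all genes). Dpysl4 was at -0.14 ± 0.16 (edgeR adjusted p = 0.524). All 14 microtubule and growth cone genes were lower, with a median of -2.62.

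By label, beside 35.2% of all genes, Crmp1 (-2.29), Dpysl5 (-2.16) and Dpysl2 (-0.99) were called as lower, with edgeR adjusted p-values of 0.00405, 0.000550 and 0.00160. Dpysl4 was called too (-0.93, edgeR adjusted p = 0.00297), and Dpysl3 was not (-0.34, edgeR adjusted p = 0.164).

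The difference between outer ONL and nerve at E16.5 was tested against that between ONL and nerve at E13.5, and 4 members were called. The contrast of outer ONL with nerve at E16.5, less that of ONL with nerve at E13.5, was -2.81 ± 0.51 (SE) on the log2 scale for Crmp1, -2.26 ± 0.57 for Dpysl5, -1.42 ± 0.23 for Dpysl3 and -1.29 ± 0.23 for Dpysl2, with edgeR adjusted p-values of 0.000287, 0.00688, 0.000107 and 0.000234. Of all genes, 12.3% were called, 6.75% in this direction. Dpysl4 was at 0.01 ± 0.22 (edgeR adjusted p = 0.989). Since the E16.5 side holds outer ONL only, stage and position cannot be told apart here either.

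Inner ONL, not part of this contrast, lay above E16.5 nerve in mean level, at 495 against 70.5 CPM for Crmp1, 291 against 112 CPM for Dpysl2, 1185 against 832 CPM for Dpysl3 and 129 against 59.4 CPM for Dpysl5, a difference that was not tested. The libraries of Dpysl3 and Dpysl5 overlapped between these groups. For Dpysl3, mean levels were thus above nerve in E13.5 ONL and in inner ONL, and below it in outer ONL. All 14 microtubule and growth cone genes were called as lower in the contrast (median -2.06), as were 5 of the 12 bulb neuron markers (median -2.85), and their part in it was not tested.

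By label, 12.5% of all genes were called and Dpysl5 was the called member (-1.79, edgeR adjusted p = 0.0439). The values were -1.28 for Crmp1, -0.37 for Dpysl3, -0.38 for Dpysl2 and -0.67 for Dpysl4, with edgeR adjusted p-values of 0.307, 0.392, 0.487 and 0.180.

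**Figure D4:**
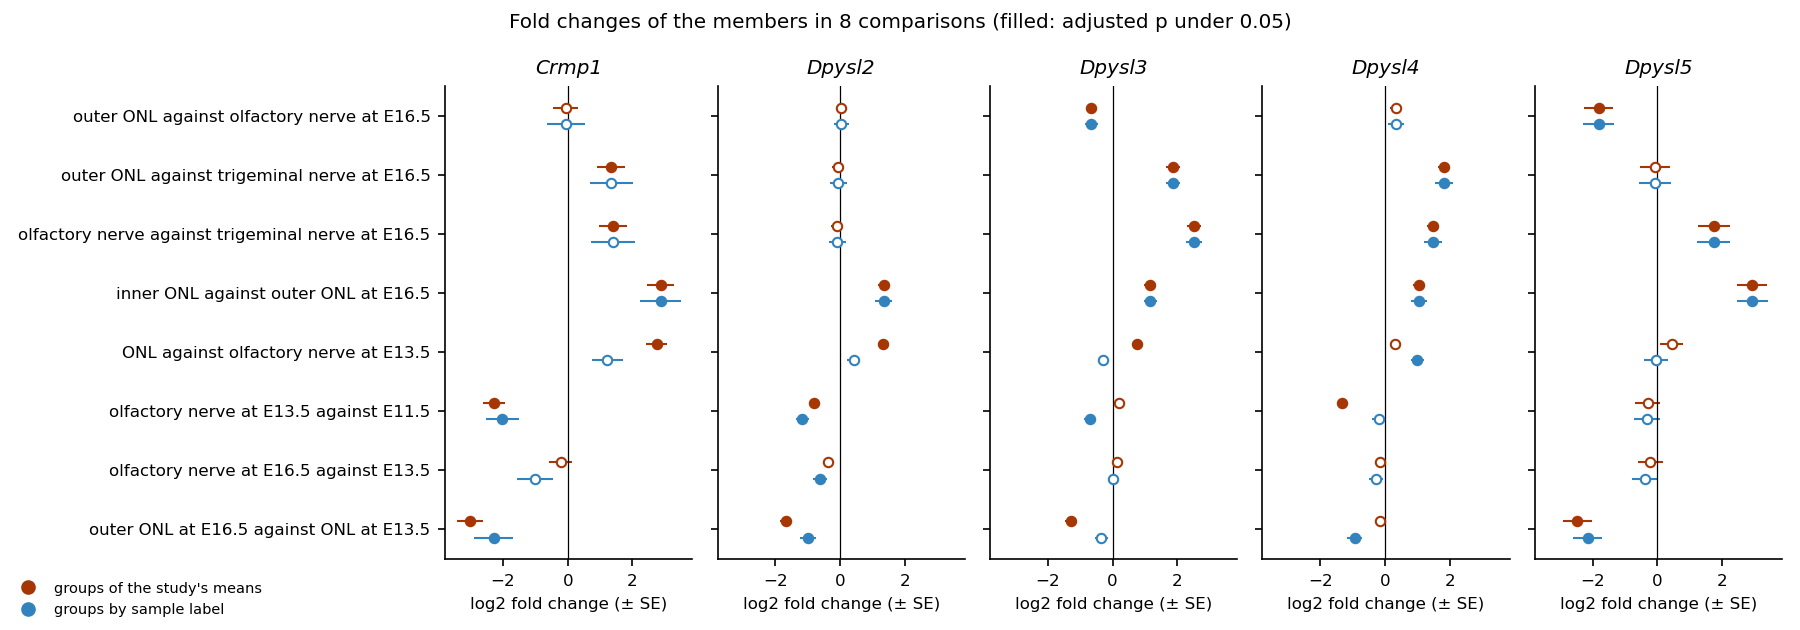
Log2 fold change of each member with its standard error (horizontal axis) in 8 comparisons (rows), for the early groups of the tabulated averages (brown) and by sample label (blue). Filled points have an edgeR adjusted p under 0.05, and within E16.5 both groupings give nearly the same values, with the calls of Crmp1 against trigeminal nerve lost by label, whereas for E13.5 ONL against nerve Crmp1 is at 2.76 by the averages and at 1.23 by label.

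The genes around the family were counted in the same comparisons. The semaphorin 3 ligands (7 genes, all tested) were called as lower in outer ONL than in E16.5 nerve for 3 and as higher for none. Sema3f, a repellent acting through neuropilin-2, was at 4.09 ± 2.14 CPM in outer ONL (SD, n = 4) and 24.5 ± 3.16 CPM in nerve (SD, n = 4), a log2 fold change of -2.57. Sema3c was at 15.9 ± 11.0 and 56.7 ± 20.4 CPM, a log2 fold change of -1.83. In E16.5 nerve Sema3a, the ligand the family is best known for, was at 105 ± 30.7 CPM (SD, n = 4), and it was called as higher there than in trigeminal nerve (8.23 ± 2.01 CPM, SD, n = 3), where Sema3b was at 376 ± 23.9 CPM.

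Of 7 semaphorin 3 receptors, 4 were lower in outer ONL than in E16.5 nerve, with a median of -0.80. Nrp1, the binding subunit for Sema3a, was at 103 ± 29.3 CPM in outer ONL (SD, n = 4), 358 ± 78.0 CPM in olfactory nerve (SD, n = 4) and 884 ± 144 CPM in trigeminal nerve (SD, n = 3), and each pair of these was called. At E13.5, 3 of the 7 receptors were called as higher in the ONL than in nerve and 1 as lower, with a median of -0.34. The ONL had more Nrp2 (148 ± 20.4 CPM, SD, n = 5) and Plxna3 (53.6 ± 7.62 CPM) than nerve (57.9 ± 18.2 and 24.7 ± 5.26 CPM, SD, n = 7). It had less Plxnd1, at 24.4 ± 5.61 against 38.9 ± 5.10 CPM. The contrast of outer ONL and nerve at E16.5 with ONL and nerve at E13.5 was lower for 5 of the 7 receptors (median -1.35).

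Of 10 kinases and kinase activators that act on the family, 2 were called as higher in inner than in outer ONL and 1, the tyrosine kinase Fes, as lower, which is named here after its values were seen. Cdk5 was at 152 ± 17.8 CPM in the inner and 118 ± 18.3 CPM in the outer libraries (SD, n = 4 each). Cdk5r1, its p35 activator, differed more, with 38.6 ± 13.3 CPM in the inner libraries (SD, n = 4) and 7.20 ± 4.59 CPM in the outer ones (SD, n = 4). In E13.5 ONL it was at 93.9 ± 27.1 CPM (SD, n = 5) and in E13.5 nerve at 3.49 ± 0.842 CPM (SD, n = 7). Fyn, a tyrosine kinase, was higher in outer ONL (179 ± 11.6 CPM, SD, n = 4) than in E16.5 nerve (47.8 ± 6.25 CPM, SD, n = 4), the reverse of Dpysl3 and Dpysl5. Gsk3b was lower at E16.5 than at E13.5, both in nerve (50.9 ± 6.95 against 87.0 ± 16.9 CPM) and in outer ONL against ONL (67.8 ± 8.37 against 131 ± 19.4 CPM).

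Of 9 partners of the family, 4 were higher in inner than in outer ONL and none was lower. Klc1, a kinesin light chain that Dpysl2 binds, was at 379 ± 33.8 CPM in the inner and 161 ± 34.9 CPM in the outer libraries (SD, n = 4 each). Wasf1, of the WAVE actin-regulating complex, was at 28.8 ± 6.55 and 11.4 ± 2.35 CPM. Numb, an endocytic adaptor, was higher in outer ONL (118.6 ± 16.52 CPM) than in E16.5 nerve (66.8 ± 9.72 CPM, SD, n = 4 each). Of the 3 pyrimidine degradation enzymes, from which the family's names derive, 2 were tested. Dpyd was higher in outer ONL (33.6 ± 6.87 CPM) than in E16.5 nerve (14.0 ± 1.76 CPM) and inner ONL (17.8 ± 4.66 CPM, SD, n = 4 each). The other tested enzyme was called as lower in outer ONL than in E16.5 nerve.

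Across the 31 libraries, the genes whose log2 CPM was most like each member's were sought among 8666 genes with a mean of at least 20 CPM. For Crmp1 they were Mllt11, Stmn4 and Trim46 (Pearson r 0.977, 0.973 and 0.972). For Dpysl2 they were Scg3, Pak1 and Dusp8 (0.948, 0.947 and 0.938), and for Dpysl3 Calb2, Rab11fip4 and Elavl2 (0.959, 0.938 and 0.934). For Dpysl4 they were Map1b, Crtac1 and Syt11 (0.913, 0.905 and 0.903), and for Dpysl5 Mapk10, Syt5 and Gnao1 (0.914, 0.910 and 0.901).

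Within the family the same measure was highest for Crmp1 and Dpysl2 (r = 0.914) and lowest for Dpysl4 and Dpysl5 (r = 0.578). These coefficients describe libraries that share groups, stages and tissue make-up. In the 15 E16.5 libraries alone, 1 of the 3 genes stayed for Crmp1 (Stmn4), 1 for Dpysl3 (Calb2), 2 for Dpysl5 (Mapk10 and Gnao1) and none for Dpysl2 and Dpysl4.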

How the data were processed

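The authors sequenced 31 laser-microdissected pieces with SMART-seq V4 and Nextera XT (paired-end). They deposited raw counts of reads per gene, made with FastQC, TopHat2 2.1.0 (mm10) and HTSeq per the labels' processing notes. The notes name DESeq2 3.7. Strand use in counting is not given in the sources used here, and amplified cDNA without molecular identifiers was counted. The count of 1 unnamed row was left out. GENCODE M21 gave symbols to 47224 genes.

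Counts were scaled by TMM and tested with edgeR 4.0.16 in R 4.3.3 (filterByExpr, glmQLFit, glmQLFTest) with all 31 libraries and 7 groups in a joint model and Benjamini-Hochberg adjustment over 19332 genes. Early groups follow the study's table of group means: a non-negative least squares fit (SciPy 1.17.1) found the libraries each mean averages. Exon lengths are unions over GENCODE transcripts. Correlations used log2 CPM with a prior count of 2. Alternatives were DESeq2 1.42.0, total count scaling, no filter or a stricter one (1 CPM in 7 libraries), the compared groups alone, grouping by label, a replicate block at E16.5, and each library left out. Leaving out outer ONL replicates 2 and 4 was chosen after seeing the data. The scripts were tested on simulated data.

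The members and gene lists were chosen with earlier results of these data known. Beside all members, the 2 called genes of a list with the largest change in each direction and at least 20 CPM in the higher group could be named, with Tubb3, Sox10 and the markers of other cell types as reference levels. The levels of Tbr1, Npy, Omp and Stmn2 were picked after their values were seen.

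Same-numbered outer ONL and E16.5 nerve libraries deviated together over 10607 genes (r 0.264 to 0.495, other pairs -0.412 to 0.391). These ranges overlap, so the numbers were taken only as possible pairs, from the data alone. The study states shared cryosections at E16.5, but no source used here ties numbers to embryos. In the other E16.5 comparisons the numbers were not taken to pair (lowest r -0.326 to -0.291). Replicates are separate pieces, and p-values measure the spread between pieces.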

Additional observations from a re-analysis of the deposited data

Results flagged for a closer look

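In 4 members the contrast of outer ONL with olfactory nerve at E16.5 differed from that of the undivided ONL with nerve at E13.5 by a test of that difference (edgeR's quasi-likelihood test). Stage and position in the layer cannot be told apart in it. The values on the log2 scale were -2.81 for Crmp1, -2.26 for Dpysl5, -1.42 for Dpysl3 and -1.29 for Dpysl2. Of all genes, 12.3% were called in this contrast, 6.75% as lower. All 14 microtubule and growth cone genes (median -2.06) and 5 of 12 bulb neuron markers (median -2.85) were lower in the same contrast, and their part in it was not tested. With the early libraries grouped by label, the difference was called for Dpysl5 alone among the members, beside 12.5% of all genes. Dixon's criterion was applied to 30 groups of 4 to 7 libraries (5 members in 6 groups) to find a library far from the rest. It was met in 0, where chance meets it in about 1 in 20 groups. The criterion looks for 1 library, so it could not flag the upper and lower pair of outer ONL libraries for Crmp1 and Dpysl5.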

How the results depend on the processing

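Of the alternatives named under the processing, omitting the filter on low counts changed no call and no direction of a member. The values that follow are log2 fold changes of the member unless they are named otherwise, and the cause of each change was not tested, except that grouping by label moves 10 early libraries between groups by its construction. In outer ONL against E16.5 nerve, Dpysl2, near 0 throughout, was at -0.017 with DESeq2, -0.099 with total count scaling, -0.021 with the stricter filter and -0.15 without outer ONL replicates 2 and 4, where Crmp1 was at -1.82. In outer ONL against trigeminal nerve, Crmp1 was at 1.38 in a fit of both groups alone, 1.35 by label, 0.46 with the replicate block and -0.39 without outer ONL replicates 2 and 4, where Dpysl5 was at -1.69, and with total count scaling Dpysl2 was at 0.075 and Dpysl5 at 0.094. In olfactory against trigeminal nerve, Crmp1 was at 1.41 by label and Dpysl2 at 0.17 with total count scaling. The contrast of outer ONL with nerve at E16.5 less that of ONL with nerve at E13.5, called the double contrast here, was 0.015 for Dpysl4 as reported, and it was at -0.053 with DESeq2, -0.053 with total count scaling, -0.022 with the stricter filter, -0.67 by label and -0.19 without outer ONL replicates 2 and 4. Outer ONL replicates 2 and 4 were the highest of that group for Crmp1, Dpysl2, Dpysl3 and Dpysl5, so values without them describe replicates 1 and 3 and test nothing. Without them Crmp1 and Dpysl5 were at -4.81 and -4.13 in outer ONL against E13.5 ONL, and at -4.62 and -3.95 in the double contrast.

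By label, the number of genes called was 1658 for inner against outer ONL, 3421 for ONL against nerve at E13.5 and 3380 for nerve at E13.5 against E11.5. The number of members called by label was 1 for ONL against nerve at E13.5 (Crmp1 1.23, Dpysl2 0.42, Dpysl3 -0.28, Dpysl4 1.01, Dpysl5 -0.031), 1 for nerve at E16.5 against E13.5 (Dpysl2 -0.61) and 1 for the double contrast (Crmp1 -1.28, Dpysl2 -0.38, Dpysl3 -0.37). Beside these, 17.7%, 25.1% and 12.5% of all genes were called by label, in that order. Nerve at E13.5 against E11.5 gave Dpysl3 -0.70 and Dpysl4 -0.19 by label, and outer ONL against E13.5 ONL gave Dpysl3 -0.34 and Dpysl4 -0.93. In a fit of both groups alone, 1 member was called for nerve at E16.5 against E13.5 (Dpysl2 -0.37), beside 6386 genes called in that fit. Mean levels by label were 574 (Crmp1), 383 (Dpysl2), 1321 (Dpysl3) and 53.5 CPM (Dpysl4) in E11.5 nerve, 141 (Crmp1) and 171 CPM (Dpysl2) in E13.5 nerve, and 331 (Crmp1), 229 (Dpysl2), 672 (Dpysl3) and 94.4 CPM (Dpysl4) in E13.5 ONL. With total count scaling the trigeminal means were 104 (Dpysl2) and 12.2 CPM (Dpysl4).

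With 1 library left out at a time, the values ranged from -0.56 to 0.24 for Crmp1 and -0.079 to 0.14 for Dpysl2 in outer ONL against nerve, and from 0.85 to 1.69 for Crmp1, -0.14 to 0.043 for Dpysl2 and -0.60 to 0.25 for Dpysl5 in outer ONL against trigeminal nerve. They ranged from 1.28 to 1.59 for Crmp1 and 1.40 to 2.01 for Dpysl5 in olfactory against trigeminal nerve, and from 0.25 to 0.39 for Dpysl4 in ONL against nerve at E13.5. For nerve at E16.5 against E13.5 they ranged from -0.43 to -0.25 for Dpysl2 and -0.52 to 0.050 for Dpysl5. In these fits 0 to 1 members were called, beside 4116 to 5382 genes. The double contrast of Dpysl4 ranged from -0.090 to 0.11.

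With the replicate number as a block, outer ONL against nerve gave -0.72 for Dpysl3 and -2.12 for Dpysl5 (edgeR adjusted p = 0.0110 and 0.0366) and 5103 genes called, and no member's call changed. In outer ONL against trigeminal nerve the block gave 3283 genes called, and Crmp1 lost its call at 0.46. This fit left out outer ONL replicate 4, whose number trigeminal nerve lacks. No other call of a member changed with the block. No block was fitted among the early groups, although their labels share numbers, because the groups used here mix libraries numbered under different labels. Counting depth did not limit the members, whose lowest count was 63, whereas the precision of group means is limited by 3 to 7 libraries.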
